A study of Homo sapiens with 8 samples.

Results

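Control COV318 cells grown as spheres were compared with the same cells grown attached, over all genes of the raw count table. The comparison rests on 2 of the 8 libraries of the series, COV318-CTR OCSC and COV318-CTR bulk, with 1 library a side. COV318 is an established ovarian carcinoma cell line, and the control cells carry an empty lentiviral vector and were selected with puromycin. Bulk cells were kept on adherent dishes in DMEM with serum, whereas OCSC (ovarian cancer stem cells, the study's name for cells from sphere culture) were grown as spheres, which the study seeded at low density on polyHEMA-coated dishes in serum-free DMEM:F-12 with B27, EGF and FGF2. The sphere generation of this library is not given in the sources used here. Both libraries are labelled passage 18. Attachment, serum, added growth factors and cell density changed together, so their parts in a difference cannot be told apart. The 6 other libraries, used for the scaling and set side by side at the end, are the bulk and OCSC libraries of COV318-MGP (COV318 with ectopic matrix Gla protein, MGP, passage 18), OVCAR3-CTR and OVCAR3-MGPKO (another ovarian carcinoma line, as control or with MGP knocked out by CRISPR-Cas9, passage 4). With no replicate there is no p-value, and every 95% interval printed here is an exact Clopper-Pearson interval of a ratio of 2 counts, which covers counting error only and not the spread between cultures.

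The bulk library held 37393919 counts on genes and the OCSC library 12294591, the largest and the smallest of the 8. A count of 3, taken as the floor, was worth 1.62 normalised counts in bulk and 4.46 in OCSC. Counts were divided by median-of-ratios size factors, which differed 2.76-fold between the libraries. The log2FC of a gene is the difference of log2(normalised count + 1), positive where OCSC is higher, and a gene was called at a log2FC of at least 1 in size. A gene counted as measured with a mean of at least 50 normalised counts over the pair, which left 12276 of 20339 genes. A gene near this minimum can pass through the library where it is high, so counts over measured members describe the libraries and are not read as support. For the main lists the counts without the minimum are also given.

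In sphere culture 736 measured genes (6.0%) were higher and 826 (6.73%) were lower, and in either direction 1562 were called (12.7%). The median log2FC over all measured genes was -0.07, with an interquartile range of -0.39 to 0.27. Across all 20339 genes the 2 libraries correlated at Pearson's r = 0.961 on the log2 scale, which describes genes of 1 pair of libraries and not replicates. The counting interval excluded 0 in 8868 genes (72.2%), so at this depth counting error is small beside most differences and the spread between cultures is the error that is not known. Scaling by library totals in place of size factors moved the median of all genes by 0.14, to 0.075, and turned the split to 960 higher and 679 lower.

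Few genes were on in 1 of the 2 libraries and off in the other. Of genes with at least 300 normalised counts in bulk, 1 had at most 3 counts in OCSC, and 0 genes were the other way round. That gene, AMTN, chosen here after its values were seen, had 584 counts in bulk and 0 in OCSC. All 10 ovarian carcinoma epithelium markers were above the floor in both libraries. KRT7, KRT8, KRT18 and CDH6 among them were called lower and MUC16 higher, and the summed normalised count of the 10 was 55792 in bulk and 19115 in OCSC. PAX8, a transcription factor of the Mullerian lineage, showed 6778 counts in bulk and 3342 in OCSC, and the mesothelin gene MSLN had 3800 and 1076. The libraries labelled COV318-MGP stood apart from both. With the same limits, 210 genes were on in COV318-CTR bulk and at the floor in COV318-MGP bulk, and 119 were the other way round. PAX8, KRT7 and SLPI had 0 counts in both libraries labelled COV318-MGP, whereas ZMYM2 had 0 counts in both COV318-CTR libraries and 4431 and 2288 in those labelled COV318-MGP. IRS4 and NEFL had 32351 and 2564 counts in COV318-MGP bulk, against 0 of either in COV318-CTR bulk and 4 and 0 in COV318-CTR OCSC. KRT7, SLPI, ZMYM2, IRS4 and NEFL were also chosen after their values were seen. The COV318-MGP pair is therefore named by its label only. It touches the values of COV318-CTR only through the shared size factors, and size factors from the COV318-CTR pair alone gave 746 genes higher and 814 lower.

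**Figure D1:**
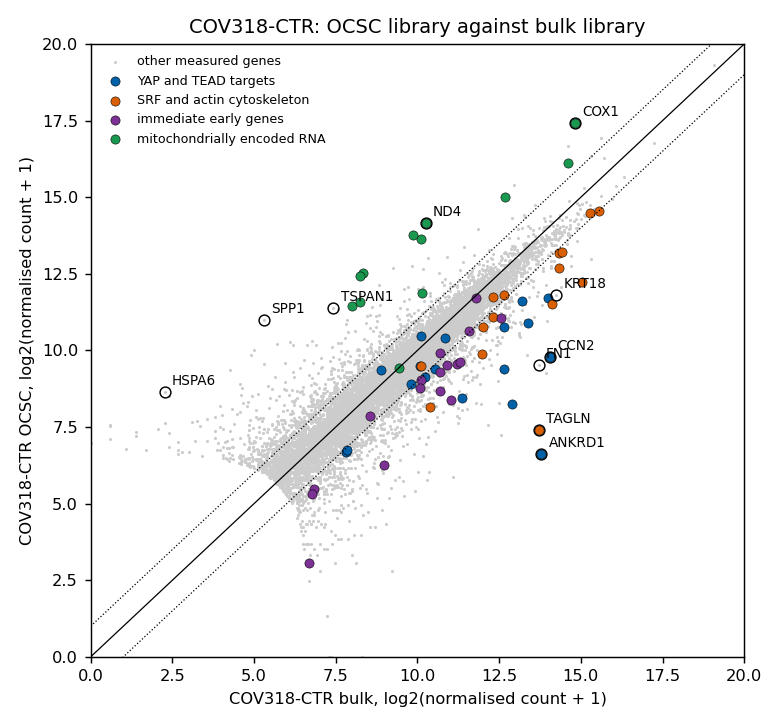
Normalised counts of the 12276 measured genes in COV318-CTR bulk (x axis) and OCSC (y axis), both as log2(normalised count + 1). The solid line marks equal values and the dotted lines a log2FC of 1 in size, colours mark 4 gene lists, and open circles mark the named genes. ANKRD1, TAGLN, CCN2 and FN1 lie far below the lines, and COX1, ND4 and 9 more mitochondrially encoded mRNAs lie above them.

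Cells attached to a stiff surface spread, build contractile actin fibres and pull on the matrix through integrins. In this state the coactivators YAP and TAZ enter the nucleus and bind TEAD transcription factors, and free actin monomer is depleted so that MRTF coactivators bind the serum response factor SRF. Serum lipids such as lysophosphatidic acid activate both routes as well. Typical TEAD targets are CCN1, CCN2 and ANKRD1, and typical SRF targets are TAGLN, the tropomyosin genes and immediate early genes such as EGR1. Sphere culture takes away both the surface and the serum, and is used to enrich cells that survive and divide without attachment.

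The promoters of 3 genes with large differences in sphere culture show what such sites look like. Each line gives the 250 bases before the annotated transcription start, read from RefSeq on GRCh38.p14 in the direction of the gene, with site matches in capitals. Capitals in ANKRD1 and CCN2 mark the TEAD motif GGAATG (or its reverse complement CATTCC), and in EGR1 the CArG box, the site that SRF binds. ANKRD1 lies on the minus strand at chr10:90921088-90921337, CCN2 on the minus strand at chr6:131951373-131951622 and EGR1 on the plus strand at chr5:138465229-138465478.
ANKRD1: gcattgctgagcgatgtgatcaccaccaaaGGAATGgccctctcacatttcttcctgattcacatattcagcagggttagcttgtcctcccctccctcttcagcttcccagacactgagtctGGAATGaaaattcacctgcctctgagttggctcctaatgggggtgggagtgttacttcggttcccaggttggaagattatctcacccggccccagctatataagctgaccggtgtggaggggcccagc
CCN2: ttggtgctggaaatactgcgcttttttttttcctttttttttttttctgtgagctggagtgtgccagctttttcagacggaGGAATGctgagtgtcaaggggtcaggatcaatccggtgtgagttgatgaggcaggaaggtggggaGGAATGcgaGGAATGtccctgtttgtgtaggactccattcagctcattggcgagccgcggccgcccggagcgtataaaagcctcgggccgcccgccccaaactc
EGR1: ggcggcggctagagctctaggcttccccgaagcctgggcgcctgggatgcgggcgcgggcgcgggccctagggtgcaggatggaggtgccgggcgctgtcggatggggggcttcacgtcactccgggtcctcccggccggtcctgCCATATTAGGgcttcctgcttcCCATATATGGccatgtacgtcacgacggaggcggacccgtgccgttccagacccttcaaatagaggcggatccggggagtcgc

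ANKRD1 held 2 TEAD motifs, beginning 220 and 128 bases before the start, and CCN2 held 3, beginning 169, 104 and 95 bases before it. EGR1 held 2 CArG boxes, beginning 105 and 83 bases before the start. Both motifs were searched on both strands of the same window in 27195 RefSeq promoters, the first listed for each gene. The TEAD motif stood in 11.9% of all promoters, in 9.35% of those of 9721 measured genes, in 12.4% of those of 623 genes called lower and in 8.65% of those of 497 genes called higher. The CArG box stood in 1.15% of all promoters, in 0.988% of the measured genes, in 2.73% of the lower genes and in 1.61% of the higher genes. Among lists, 6 of 15 matched YAP and TEAD target promoters held the TEAD motif, and 5 of 16 matched SRF and actin promoters held a CArG box. A CArG box stood in 0 of the 15 YAP and TEAD target promoters and in 1 of 17 matched immediate early promoters (5.88%), that of EGR1, and other listed starts of a gene were not searched. The AP-1 motif TGANTCA stood in 6.55% of all promoters, 3.63% of the measured genes, 5.94% of the lower and 5.63% of the higher genes, and a match can share its end letters TG or CA with a TEAD match. A match is a string of letters and says nothing of binding in these cells.

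YAP and TEAD targets were mostly lower in sphere culture. Of 20 listed genes 18 were measured, of which 13 were called lower and 0 higher, with a median log2FC of -1.35 against -0.07 over all measured genes. Without the minimum the counts were again 13 lower and 0 higher. In bulk RNA, fewer cells that use a gene and less of its RNA per cell cannot be told apart, here and in all that follows. ANKRD1, a muscle ankyrin repeat protein and TEAD target, had 26258 counts in bulk and 65 in OCSC. In normalised counts this was 14143 against 96.6, a log2FC of -7.18 (95% interval -7.57 to -6.84), the largest difference in size of any gene with a pair mean of at least 200. CCN2, a secreted matricellular protein, had 31854 counts in bulk and 593 in OCSC (log2FC -4.28, -4.40 to -4.17). Its relative CCN1 had 11811 and 454 counts (log2FC -3.23). AJUBA and AMOTL2, scaffold proteins of the Hippo pathway that limits YAP, had a log2FC of -1.88 and -2.26. The ecto-enzyme gene NT5E (CD73) had 4865 counts in bulk and 234 in OCSC. IGFBP3, which binds insulin-like growth factors, had 14104 and 203. The genes TGFB2 (log2FC 0.36) and ASAP1 (0.48) were on the other side of 0 and were not called.

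SRF targets and the actin cytoskeleton were also mostly lower, the contractile genes most. Of 19 listed genes 15 were measured, with 11 lower, 0 higher and a median log2FC of -1.22, and without the minimum 14 were lower and 0 higher. TAGLN, the actin-binding protein transgelin, had 24932 counts in bulk and 113 in OCSC (log2FC -6.31, -6.60 to -6.05). The tropomyosin gene TPM1 had 62260 and 3252 counts (log2FC -2.79), and TPM2 had a log2FC of -2.10. Caldesmon (CALD1), myosin light chain 9 (MYL9) and filamin A (FLNA) had a log2FC of -2.60, -2.23 and -1.64. Of 9 measured contractile genes 8 were called lower, at a median log2FC of -2.10. The structural actins differed less. ACTG1 had 89121 counts in bulk and 16105 in OCSC, a log2FC of -1.0 that lies at the threshold, and ACTB had a log2FC of -0.77. SRF itself was at -0.62. ABLIM1, an actin-binding LIM protein, had 76120 counts in bulk and 5432 in OCSC (log2FC -2.34) and was the called gene with the largest loss in normalised counts.

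Matrix and adhesion genes were lower, led by fibronectin and matricellular proteins, while the main collagen IV chains differed little. Of 49 listed genes with counts 37 were measured, with 20 lower, 1 higher and a median log2FC of -1.15, and without the minimum 26 were lower and 3 higher. FN1, which encodes fibronectin, had 24788 counts in bulk and 497 in OCSC (log2FC -4.17, -4.31 to -4.05). SPARC had 693 and 12 counts, and THBS1 (thrombospondin 1) had 5363 and 255. FBN2, LOX and VCAN, which encode a fibrillin, the enzyme that crosslinks collagen and a proteoglycan, had a log2FC of -3.02, -2.79 and -2.00. The exception was TNC (tenascin C), with 842 counts in bulk and 1529 in OCSC (log2FC 2.32, 2.20 to 2.45).

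Among collagens, COL3A1 (10409 against 346 counts), COL5A1 (1292 against 39) and COL12A1 (6708 against 395) were lower. COL4A1 and COL4A2, the main collagen IV chains of basement membranes, were at a log2FC of -0.09 and 0.10, and COL18A1, also of basement membranes, was at -0.89 and not called. Laminin chains were split. LAMA4, LAMB1 and LAMA5 were called lower, LAMA1 and LAMA3 were at -0.01 and 0.08, and LAMC1, with 55456 counts in bulk, was at -0.39. Of 9 measured integrin genes 5 were lower. ITGA1 and ITGA3 had a log2FC of -3.25 and -1.81, ITGAV had 56092 counts in bulk and 8200 in OCSC (log2FC -1.31), and ITGB1 was at -1.19. ITGA6 and ITGB4, which pair as a laminin receptor of hemidesmosomes, were at 0.50 and 0.03. COL3A1 is also a fibroblast marker, which touches the collagen values. Of 9 fibroblast markers in the table only COL3A1 was measured, and the summed normalised count of the 9 was 5806 in bulk and 603 in OCSC. COL3A1 made up 10409 of the 10780 bulk counts behind that sum. Without the minimum 5 of the 9 were lower and 1 was higher. COL1A1 had 143 counts in bulk and 7 in OCSC, PDGFRB 118 and 2 and LUM 26 and 3, while COL1A2 and PDGFRA were at the floor in bulk with 2 counts each. The 6 mesothelial markers summed to 9106 and 3693 normalised counts. Of 3 measured, UPK3B and PDPN were lower at a log2FC of -1.36 and -1.99, and LRRN4 was not called, at -0.36. Without the minimum 4 of the 6 were lower, among them ITLN1 (12 counts in bulk and 1 in OCSC), and 1, DES at 3.41, was higher. The part of the fibroblast and mesothelial markers in the matrix result was not tested.

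Keratins were lower, whereas other epithelial genes went both ways. KRT7, KRT18, KRT19 and KRT8 encode the keratins of simple epithelia. Counts of KRT7 were 19478 in bulk and 614 in OCSC (log2FC -3.52), of KRT18 36058 and 2396 (-2.45), KRT19 17608 and 1718 (-1.89) and KRT8 1197 and 106 (-2.03). These keratins have close pseudogene copies, and how reads shared with them were counted is not given in the sources used here. CDH1 (E-cadherin) had 505 and 248 counts, a log2FC of 0.44, and EPCAM was at -0.58. The tight junction genes CLDN7 (log2FC 1.62) and CLDN3 (1.01) were higher. CLDN11, another claudin, had 11097 counts in bulk and 100 in OCSC (log2FC -5.32). Of 7 measured mesenchymal genes VIM (vimentin, log2FC -1.45) and MMP2 (a matrix protease, 329 counts in bulk and 5 in OCSC) were lower and 0 were higher. CDH2 (N-cadherin) and TWIST1 were at -0.64 and -0.70 and ZEB1 at 0.41. SNAI2 had 0 counts in bulk and 1 in OCSC. CDH6, a cadherin of kidney and ovarian carcinoma, was at -2.35.

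Immediate early genes, which serum switches on within minutes in resting cells, were lower. Of 21 listed genes 17 were measured, with 13 lower, 0 higher and a median log2FC of -1.38, and without the minimum 15 were lower and 1 (KLF2, 20 against 19 counts) higher. FOS had 11225 counts in bulk and 1443 in OCSC (log2FC -1.50), FOSB 3901 and 225 (-2.65), JUNB 926 and 51 (-2.70) and EGR1 3048 and 272 (-2.02). MYC had 3034 and 422 counts, a log2FC of -1.38. BTG2, JUN and JUND were not called, at -0.06, -0.94 and -0.76. Feedback genes of the ERK MAP kinase pathway, which EGF and FGF2 activate, went apart from these. Of 15 measured genes 3 were higher and 3 lower. The phosphatase gene DUSP4 had 113 counts in bulk and 519 in OCSC (log2FC 3.64, 3.37 to 3.97), while DUSP6 and SPRY4 were at -0.30 and 0.01. PHLDA1 and EPHA4 were higher, at 2.07 and 1.92. CCND1, LIF and EPHA2 were lower. FGF2, the growth factor that is also added to sphere medium, had 2287 counts in bulk and 82 in OCSC (log2FC -3.33).

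Targets of TGF-beta and of bone morphogenetic proteins (BMP), the SMAD pathways, had the lowest median of the lists. Of 24 listed genes with counts 19 were measured, with 12 lower, 0 higher and a median log2FC of -1.69, and without the minimum 16 were lower and 0 higher. The BMP targets ID1, ID2 and ID4, inhibitors of basic helix-loop-helix factors, had a log2FC of -3.02, -1.70 and -2.14. ID1 had 7153 counts in bulk and 320 in OCSC. The inhibitory SMAD genes SMAD6 and SMAD7 were at -2.65 and -1.53, and SKIL, a repressor that TGF-beta induces, was at -1.69. BMP4 was lower (917 against 86 counts) and BMP7 was not called, with 7683 and 4710 counts and a log2FC of 0.76. The type I and II receptors TGFBR1 and TGFBR2 were at -0.77 and -0.66. CCN2 stands in this list and in the YAP list, so the lists are not separate evidence.

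The cyclin D and CDK6 genes were lower while the listed S phase and mitosis genes were within the threshold. CCND1 had 39672 counts in bulk and 2861 in OCSC, or 21368 and 4252 normalised counts (log2FC -2.33, -2.39 to -2.27), and CDK6, its kinase partner, had 48941 and 5886 counts (log2FC -1.59). CDKN1A, the p21 inhibitor of cyclin-dependent kinases, had 27 counts in bulk and 195 in OCSC (log2FC 4.23, 3.73 to 4.96). Of 26 S phase genes 0 were called in either direction, with a median log2FC of -0.29 against -0.07 over all measured genes. Of 26 mitosis genes 0 were called, with a median of 0.02. Over all measured genes 12.7% were called in either direction. MKI67 had 5224 and 2562 counts (log2FC 0.44), TOP2A was at 0.06, PCNA at -0.38, and CCNE1, the cyclin of S phase entry, at 0.65. Of 11 measured p53 targets, CDKN1A among them, 3 were higher and 0 lower, at a median log2FC of 0.26, and without the minimum 3 were higher and 1 lower. GDF15 and TP53INP1 were higher, at 1.77 and 1.08, while MDM2 at -0.23 and BAX at -0.19 were not called. Among genes of cell death after loss of attachment, the pro-death gene BCL2L11 (BIM) was higher at 1.35 and BMF was at -0.60, while BNIP3, another BH3 gene and a HIF target, was lower at -1.13. The pro-death gene BBC3 (PUMA) had 36 counts in bulk and 4 in OCSC, under the minimum (log2FC -1.55). The survival genes MCL1 and BCL2 were lower at -1.27 and -1.71, and BCL2L1 was at -0.88.

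Among hypoxia and glycolysis genes HIF targets were mostly lower, while most glycolysis genes were within the threshold. Of 34 listed genes 31 were measured, with 11 lower, 0 higher and a median log2FC of -0.62, and without the minimum 13 were lower and 1 higher. Of 16 measured HIF targets 9 were lower, at a median of -1.06. Of 15 measured glycolysis genes 2 were lower and 13 were within the threshold, at a median of -0.54. Over all measured genes 6.73% were called lower. CA9, a carbonic anhydrase that low oxygen induces, had 501 counts in bulk and 19 in OCSC (log2FC -3.21, -4.00 to -2.60). The glucose transporter gene SLC2A1 had 17117 and 1253 counts (log2FC -2.31). PFKFB3, ANKRD37 and LDHA were at -1.87, -1.56 and -1.17, and GAPDH, often used as a reference gene, had 118438 and 21042 counts (log2FC -1.03). VEGFA was not called, at 0.01. CA12, another carbonic anhydrase, was higher, with 199 counts in bulk and 851 in OCSC (log2FC 3.55).

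Lipid genes differed by pathway. Of 12 fatty acid synthesis genes 5 were lower and 0 higher, with a median log2FC of -0.73. SCD, the stearoyl-CoA desaturase, had 29253 counts in bulk and 3032 in OCSC (log2FC -1.81), and FASN, SREBF1 and FADS2 were at -1.24, -1.34 and -1.20. Of 24 measured cholesterol genes 22 were within the threshold and 2, STARD4 (-1.52) and DHCR7 (-1.04), were lower, at a list median of -0.40. Of 5 measured sterol efflux and LXR targets 2 were higher, APOE at 1.3 and LPCAT3 at 1.09, and 0 lower. The efflux pump gene ABCA1 was at 0.24 and MYLIP at -0.14, both not called. ABCG1, another efflux pump gene, was under the minimum at -1.29. Over all measured genes 6.0% were called higher and 6.73% lower.

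Stress and interferon lists were mostly level, while inflammatory genes were lower in part. Over all measured genes 6.0% were called higher and 6.73% lower. Of 21 measured genes of ER chaperones and the unfolded protein response 0 were called, and of 15 measured NRF2 targets 0 were called. Of 22 interferon and antigen presentation genes 1, BST2 at -1.02, was called, and MX1 had 28247 counts in bulk and 12992 in OCSC (log2FC 0.34). Of 33 amino acid response genes 4 were lower, among them SLC7A5, a transporter of large neutral amino acids (log2FC -1.89), and 1, TRIB3, was higher at the threshold (1.0). Of 14 inflammatory genes 6 were lower, led by the chemokine genes CCL2 (431 against 9 counts) and CXCL10 (2622 against 234), and 1, BIRC3 at 1.34, was higher. Leukocyte markers were near 0, with at most 19 counts of any of the 4 in the table in either library. The 5 endothelial markers summed to 1126 and 1296 normalised counts, with PECAM1 at 14 and 9 counts. Markers of HEK293 lineage, the cells that packaged the vector, summed to 13259 and 7047, nearly all from DPPA4 and LIN28B, while NEFL, NEFM and PAX2 were at 0 in both libraries.

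The remaining lists held few called genes in number. Over all measured genes 12.7% were called in either direction, 6.0% higher and 6.73% lower. With 5 to 23 measured members a list, the counts below are not read as results about the lists. Of 12 measured FOXO and insulin-repressed genes IRS1 and IRS2, the insulin receptor substrates, were lower at -2.31 and -2.18. Of 12 retinoid and steroid hormone targets SGK1, a glucocorticoid-induced kinase, was higher at 1.44, and CYP26A1, which degrades retinoic acid, and TGM2 were lower at -1.41 and -2.74. Of 23 lysosome and autophagy genes TFEB, the regulator of lysosome genes, and WIPI1 were higher at 1.44 and 1.31, and CTSZ was lower at -1.11. Of 5 measured cilia genes CCDC78 and IFT88 were higher, at 1.59 and 1.08, and FOXJ1, the master factor of motile cilia, had 4 counts in bulk and 5 in OCSC. Without the minimum 6 of 12 cilia genes were higher and 2 lower. Of 6 measured iron genes 0 were called.

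Genes with the largest gains were few in counts and mixed in kind. HSPA6, an inducible HSP70 chaperone, had 7 counts in bulk and 269 in OCSC (log2FC 6.39, 5.67 to 8.06). It shares sequence with other HSP70 genes, so its counts may hold reads of a near copy. SPP1, which encodes the secreted phosphoprotein osteopontin, had 71 and 1378 counts (log2FC 5.71). PTGDS, the lipocalin-type prostaglandin D synthase, had 58 and 693 (log2FC 5.0), TNFRSF1B, a TNF receptor, 54 and 619 (4.94), and RBP4, the plasma carrier of retinol, 72 and 508 (4.25). TSPAN1, a tetraspanin of epithelial cells, had the highest level of these, with 171 normalised counts in bulk and 2654 in OCSC (log2FC 3.95). Others of the 15 highest by log2FC were IGFN1, EML6, ICA1, DLGAP3, BBOX1 and VAV3, from 3.98 to 5.07, and 3 mitochondrially encoded genes. SLPI, a secreted protease inhibitor, was already high in bulk and had 76117 counts in bulk and 56454 in OCSC (log2FC 1.03). On the other side, the 15 lowest also held LIX1 (1096 against 4 counts), GFRA1, a GDNF receptor (4048 against 39), FSTL1 (29183 against 412), the prostacyclin synthase PTGIS (8490 against 128) and the endothelin genes EDN1 (1795 against 28) and EDN2 (1432 against 25).

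Stem cell genes did not move one way. Of 18 measured genes 5 were higher and 4 lower, with a median log2FC of 0.08, and without the minimum 5 were higher and 5 lower. Over all measured genes 6.0% were called higher and 6.73% lower. The 2 parts of the list differed. Of 11 measured ovarian cancer stem cell markers 4 were higher and 1 lower, at a median of 0.50. Of 7 measured pluripotency genes 1 was higher and 3 were lower, at a median of -0.98. LGR5, a WNT target and receptor of R-spondins that marks stem cells in several epithelia, had 631 counts in bulk and 1287 in OCSC (log2FC 2.49, 2.35 to 2.63). ALDH1A1, CD24, SOX9 and SALL4 were higher, at 1.17, 1.19, 1.18 and 1.21. ABCB1, the multidrug efflux pump, had 982 counts in bulk and 13 in OCSC (log2FC -4.71, -5.69 to -3.99). KLF4, MYC and LIN28B were lower, at -1.46, -1.38 and -1.06. SOX2 had 496 and 184 counts, which is 267 and 273 normalised (log2FC 0.03, -0.22 to 0.28). POU5F1 had 67 and 26 counts (0.10, -0.61 to 0.77), fell under the minimum, and has near-identical pseudogene copies. CD44 had 0 counts in both libraries, which allows at most 3 counts, or 0.0802 CPM in bulk and 0.244 CPM in OCSC. PROM1 (CD133) had 4 and 0 counts.

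Mullerian and ovarian cancer genes included 2 secreted or shed tumour antigens among the called genes. MUC16, the gene of the antigen CA125, had 229 counts in bulk and 417 in OCSC (log2FC 2.32, 2.09 to 2.57), and WFDC2, the gene of the antigen HE4, had 688 and 1155 (log2FC 2.21, 2.07 to 2.35). Of 10 measured genes 2 were higher and 0 lower, where 6.0% and 6.73% of all measured genes were called. Counted without the minimum, 7 of 17 genes were higher and 0 lower. With 10 measured members, the count of 0 lower is not read as a result about the list. PAX8, WT1 and SOX17 were at 0.44, 0.64 and -0.20. Metallothioneins, small proteins that bind zinc and copper, included 3 called higher of 5 measured. MT1G had 0 counts in bulk and 84 in OCSC, at least 77.3-fold higher against the floor of 3 counts in the bulk library, and MT1X had 166 and 167 (log2FC 1.46). MT2A was at 0.63, and reads may be shared between these near-identical genes.

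MGP, the gene altered in COV318-MGP and OVCAR3-MGPKO, had 1 count in COV318-CTR bulk and 0 in OCSC, both at or under the floor. It had 40393 and 28694 counts in COV318-MGP bulk and OCSC. In OVCAR3 it had 0 and 1 counts in CTR bulk and OCSC and 0 and 2 in MGPKO. At these counts a loss of MGP RNA in OVCAR3-MGPKO could not be seen. GLI1, a Hedgehog target and transcription factor, had 11 and 4 counts, a log2FC of 0.00 with an interval of -2.10 to 1.76, so a difference within these bounds was not detectable at this depth. SMO, the Hedgehog signal transducer, had 244 counts in bulk and 13 in OCSC (log2FC -2.70), GLI3 was lower at -1.38 and PTCH1 was at -0.43. Of 5 measured Notch genes the targets HES1 (log2FC -1.51) and HES4 (-2.12) and the ligand gene JAG1 (-1.29) were lower. AXIN2, a WNT target, was at -0.03.

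Messenger RNAs encoded in mitochondrial DNA were higher in OCSC, except ND6. They encode subunits of respiratory complexes I, III, IV and of ATP synthase, and all but ND6 are cut from the transcript of the heavy strand promoter, while ND6 comes from the light strand promoter. Of 13 genes 12 were measured and 11 of these were called higher, with a median log2FC of 3.39. COX1 had 53250 counts in bulk and 117238 in OCSC (log2FC 2.60), the largest gain in normalised counts of any gene. ND1 had 593 and 3977 counts (log2FC 4.21, 4.08 to 4.34), ND4 2266 and 12252 (3.90) and CYTB 1712 and 9345 (3.91). COX3 had the smallest called difference, at 1.52. Nuclear copies of mitochondrial DNA and a counting strand not given in the sources used here make reads of single genes less certain. ND6 had 1273 and 467 counts, or 686 and 694 normalised counts (log2FC 0.02, -0.14 to 0.17). Their share of all counts was 0.329% in bulk and 1.89% in OCSC, and over the 6 other libraries it was 0.322% to 1.02%.

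Noncoding RNAs that lack a poly(A) tail moved with the mitochondrial group in part. The small nucleolar RNA SNORD3A (U3) had 45840 counts in bulk and 69718 in OCSC (log2FC 2.07), the Cajal body RNA SCARNA10 14816 and 28936 (2.43) and SNORA73B 18092 and 14821 (1.18). Of 105 measured genes annotated as snoRNA 28 were higher (26.7%) and 1 was lower. All genes annotated as snoRNA, which leave out SCARNA10, took 0.346% of counts in bulk and 1.12% in OCSC. Many lie in introns, and strand use in counting is not given in the sources used here, so their reads cannot be told from those of host gene introns. RN7SK, with 1025519 counts in bulk and 437267 in OCSC, was at 0.23, RMRP at 0.56 and RPPH1 at -0.67. Of 12 histone genes 0 were called. MALAT1, a nuclear noncoding RNA, had 50381 normalised counts in bulk and 125922 in OCSC (log2FC 1.32). The study names kits for poly(A) selection, ribosomal RNA depletion and transcriptome capture without saying which made which library, and the part of the kit in these differences was not tested. With the listed mitochondrial and non-poly(A) genes left out of the table, and so also of the size factors, 724 genes were higher and 823 lower. Of the 1562 called genes 1548 remained in that table, and 1545 of these stayed past the threshold.

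The 3 other OCSC and bulk pairs, set side by side, were called at shares of 12.1% (COV318-MGP), 18.9% (OVCAR3-CTR) and 10.4% (OVCAR3-MGPKO) in either direction. By direction these were 857 higher (6.99%) and 627 lower (5.11%) in COV318-MGP, 1390 (11.5%) and 901 (7.43%) in OVCAR3-CTR, and 720 (5.83%) and 566 (4.58%) in OVCAR3-MGPKO. Of 10128 genes measured in all 4 pairs, 6 were called higher in every pair, namely GPX3, PHLDA1, ACPP, SELENOW, KSR1 and DNMBP. GPX3, a secreted glutathione peroxidase, stood at 187 against 2593 normalised counts in COV318-CTR, 91.3 against 314 in COV318-MGP, 418 against 5037 in OVCAR3-CTR and 378 against 1577 in OVCAR3-MGPKO. Called lower in every pair were 5, namely SPOCK2, RNF144B, SLC7A5, AJUBA and FGF2. FGF2 stood at 1232 against 122 in COV318-CTR, 516 against 255 in COV318-MGP, 364 against 108 in OVCAR3-CTR and 277 against 122 in OVCAR3-MGPKO.

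Across genes the log2FC of COV318-CTR correlated at r = 0.249 with OVCAR3-MGPKO (10947 genes), 0.142 with OVCAR3-CTR (10820) and -0.052 with COV318-MGP (10736). These are correlations across genes of single library pairs, which share the scaling and the gene lengths. Of 620 genes called lower in COV318-CTR and measured in OVCAR3-CTR, 112 (18.1%) were called lower there, against 5.85% of all genes measured in both pairs, and 98 (15.8%) were called higher, against 9.80%. The 112 were 17.7% of the genes called lower in OVCAR3-CTR and the 98 were 9.25% of those called higher. Of 650 such genes measured in OVCAR3-MGPKO, 119 (18.3%) were called lower, against 3.31%, and 49 (7.54%) higher, against 4.44%. The 119 were 32.9% of the genes called lower in OVCAR3-MGPKO and the 49 were 10.1% of those called higher. Of 588 in the pair labelled COV318-MGP, 26 (4.42%) were called lower, against 4.34%, and 87 (14.8%) higher, against 6.11%. The 26 were 5.58% of the genes called lower in that pair and the 87 were 13.3% of those called higher. Of 498 genes called higher in COV318-CTR and measured in OVCAR3-CTR, 165 (33.1%, and 15.6% of those called higher there) were called higher and 54 (10.8%, and 8.53% of those called lower there) lower. For 517 in OVCAR3-MGPKO the counts were 132 (25.5% and 27.2%) and 18 (3.48% and 4.97%), and for 459 in COV318-MGP 62 (13.5% and 9.45%) and 30 (6.54% and 6.44%). The shares over all genes measured in both pairs are those given for the lower genes.

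The lists that led the differences of COV318-CTR had medians smaller in size in OVCAR3, though part of their members were called there too. YAP and TEAD targets had a median log2FC of -1.35 in COV318-CTR, -0.39 in OVCAR3-CTR and -0.53 in OVCAR3-MGPKO, and 0.69 in COV318-MGP. Of those measured, 7 of 19 were called lower in OVCAR3-CTR and 6 of 18 in OVCAR3-MGPKO, with 0 higher in either. Over all measured genes 7.43% and 4.58% were called lower in these 2 pairs. CCN1 was lower in OCSC in COV318-CTR (6362 against 675 normalised counts), OVCAR3-CTR (2222 against 396) and OVCAR3-MGPKO (1395 against 345) and higher in COV318-MGP (246 against 2239). Immediate early genes had medians of -1.38, -0.23, -0.22 and 1.56 in the same order. Of those measured, 7 of 17 were lower and 2 higher in OVCAR3-CTR, and 5 of 17 lower and 1 higher in OVCAR3-MGPKO. EGR1 in OVCAR3-CTR was at 4698 against 222 and in OVCAR3-MGPKO at 2187 against 313, and in COV318-MGP at 15.9 against 253. For SRF and actin genes the medians were -1.22 in COV318-CTR, 0.24 in OVCAR3-CTR, -0.23 in OVCAR3-MGPKO and 0.67 in COV318-MGP, and TAGLN was above 50 normalised counts only in the COV318-CTR libraries. TGF-beta and BMP targets had a median of -1.69 in COV318-CTR, 0.07 in OVCAR3-CTR, 0 in OVCAR3-MGPKO and 0.07 in COV318-MGP. Their BMP part was at -1.82, 0.25, -1.55 and -0.24 in that order, with 6 of 10 lower and 1 higher in OVCAR3-MGPKO. Hypoxia and glycolysis genes had a median of -0.62 in COV318-CTR, 0.23 in OVCAR3-CTR, -0.06 in OVCAR3-MGPKO and 1.06 in COV318-MGP. Cholesterol genes had 17 of 24 called higher in OVCAR3-CTR, with a median of 1.20, against 3 of 24 (0.66) in OVCAR3-MGPKO, 2 of 24 (-0.27) in COV318-MGP and 0 of 24 (-0.40) in COV318-CTR. Mitochondrial mRNAs had a median of -0.11 in OVCAR3-CTR, 0.94 in OVCAR3-MGPKO and 1.44 in COV318-MGP. The differences between pairs were not tested, since each pair holds 1 library a side.

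**Figure D2:**
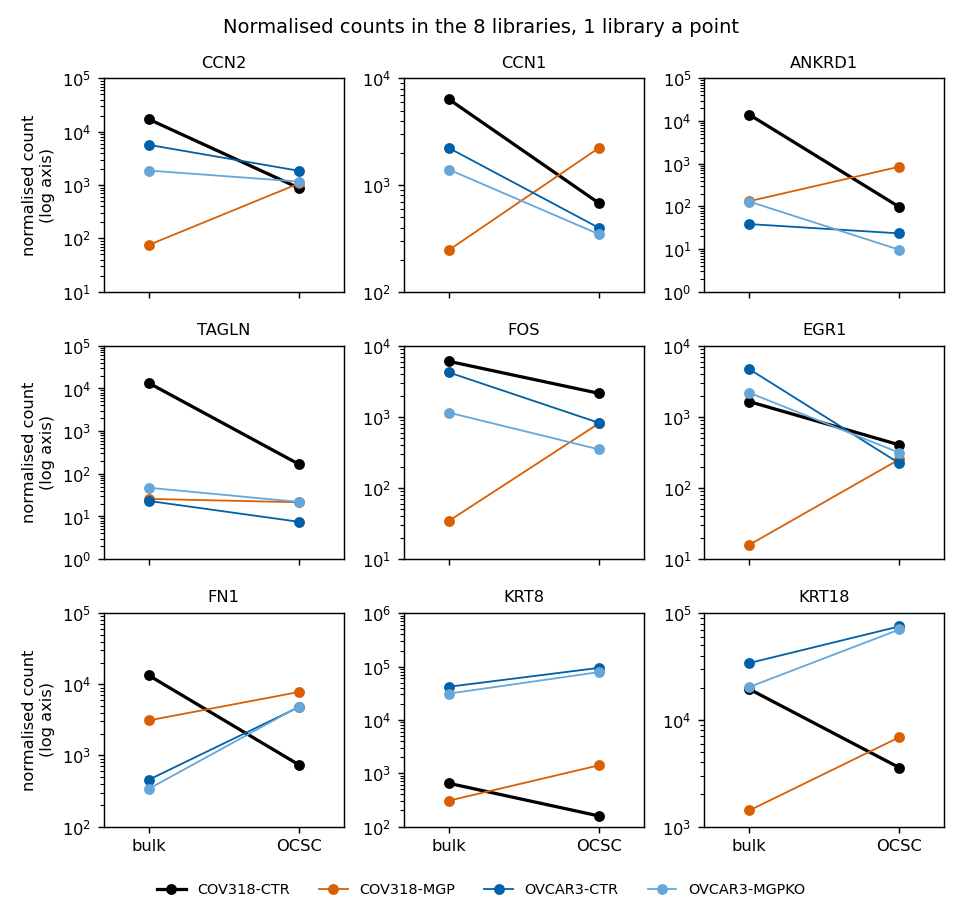
Normalised counts (y axes, log scale) of 9 genes in bulk and OCSC, each point 1 library and each line an OCSC and bulk pair. CCN2, CCN1, FOS and EGR1 are lower in OCSC in COV318-CTR and both OVCAR3 pairs and higher in COV318-MGP, and FN1, KRT8 and KRT18 are lower in COV318-CTR and higher in the 3 other pairs.

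LGR5 was higher in OCSC in COV318-CTR and in both OVCAR3 pairs, where it stood at 58.6 against 1505 normalised counts in OVCAR3-CTR and 213 against 2906 in OVCAR3-MGPKO, and it was lower in COV318-MGP (490 against 152). HSPA6 was below the minimum in OVCAR3, with at most 27 counts, and stood at 19.8 against 1308 in COV318-MGP. WFDC2 was also higher in OVCAR3-CTR (2481 against 5484) and OVCAR3-MGPKO (2630 against 6368), while MUC16 was at 13681 against 6566 in OVCAR3-CTR and 7133 against 7986 in OVCAR3-MGPKO. KRT7 was lower in OCSC in OVCAR3-CTR (43143 against 17648) and OVCAR3-MGPKO (39320 against 16804) too. ID1, at a log2FC of -3.02 in COV318-CTR, was at -2.75 in OVCAR3-MGPKO and 0.37 in OVCAR3-CTR.

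**Figure D3:**
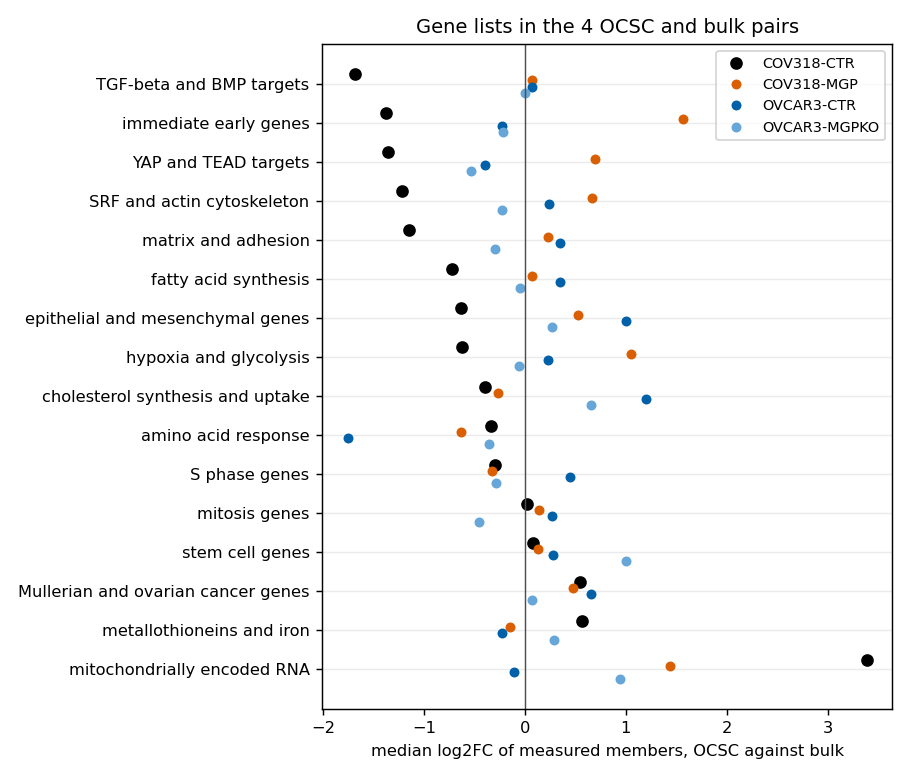
Median log2FC (x axis, OCSC against bulk) of the measured members of 16 gene lists in each of the 4 pairs. COV318-CTR (black) has the lowest median for TGF-beta and BMP targets, immediate early genes, YAP and TEAD targets and SRF and actin genes, and the highest for mitochondrially encoded RNA.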

How the data were processed

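RNA-seq of 8 libraries, 1 for each condition, was taken as the authors deposited it, as a table of counts of reads per gene and, for each library, a file of normalised values (a signal in which the authors divided each count by a DESeq2 median-of-ratios size factor). Reads were aligned to hg38 with STAR (version 2.7.5c in the submitters' processing notes). Methods name TruSeq kits for poly(A) selection, ribosomal depletion and transcriptome capture, the first 2 called strand-specific, but not which kit made which library. The annotation and the strand setting of the counting are not given in the sources used here. No gene of the table peaks below 10 counts.

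Size factors were recomputed over 15518 genes above 0 in every library, and the values differed from the deposited ones by at most 5e-05. Folds of genes absent from 1 library were taken against a floor of 3 counts, so depth sets the smallest fold that can be seen. Named genes were the 15 highest and lowest by log2FC among genes with a pair mean of at least 200, the 10 largest gains and losses in normalised counts, the leading or defining members of 35 gene lists, the genes called the same or the opposite way in other pairs, and the genes the study names. The members and lists were chosen with earlier results of these data known. XIST and Y-linked genes were left out, and some list members are not reported here. Sequences came from RefSeq and transcript GC content from GENCODE 44 (11608 of 12276 measured genes). The alternatives were other scalings, pseudocounts, minimums and thresholds, thinning of the bulk library and centring within GC bins.

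Tools were Python 3.11.15 with scipy 1.17.1, numpy 2.4.6, pandas 2.3.3 and matplotlib 3.10.9, and edgeR 4.0.16 (under R 4.3.3) to obtain TMM factors. On simulated counts of 20339 genes made for this comparison, 200 of 200 genes changed by a log2FC of 2 were recovered and 95.7% of the intervals of 12076 unchanged measured genes held 0. The simulated counts held counting error only (Poisson draws) and no spread between cultures. They check the calculation and say nothing of how calls would repeat in other cultures.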

Additional observations from a re-analysis of the deposited data

Results flagged for a closer look

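3 genes were called lower in OCSC than in bulk in COV318-CTR and called higher in the 3 other OCSC and bulk pairs, and 0 genes were the other way round, of 10128 genes measured in all 4 pairs. FN1 had a log2FC of -4.17 in COV318-CTR against 1.33 in COV318-MGP, 3.39 in OVCAR3-CTR and 3.84 in OVCAR3-MGPKO. KRT8 had a log2FC of -2.03 against 2.20, 1.18 and 1.34 in the same order, and KRT18 had -2.45 against 2.28, 1.14 and 1.79. Each was singled out because its libraries moved in opposite directions, and with 1 library a side the difference was not tested.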

How the results depend on the processing

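No paired analysis was possible because each condition has 1 library, and for the same reason no library could be left out. Against 736 genes higher and 826 lower, the counts were 1496 higher and 1223 lower with a pair mean of at least 10, 366 and 534 with at least 200, and 2454 and 2069 with no minimum. They were 339 and 429 at a log2FC of at least 1.5, 200 and 238 at a log2FC of at least 2, and 463 and 573 where the whole counting interval had to lie past 1 in size. Library totals gave 960 and 679, so that 58.6% of calls were higher against 47.1%, and the upper quartile gave 855 and 728. The remaining alternatives (TMM, the median of ratios within the pair, the deposited values, pseudocounts of 0.5, 5 and 10, a minimum mean of 50 over 8 libraries, thinning, and leaving out mitochondrial and non-poly(A) RNA) gave 680 to 959 higher and 788 to 932 lower. Centring within 20 GC bins, chosen after seeing the data, gave 651 and 735. Called genes were then followed by log2FC alone, without the minimum of each alternative, so a changed minimum could not drop a gene here. A minimum of 200 left only 366 higher and 534 lower, as given above. On log2FC alone, from 1419 (library totals) to all of the 1562 called genes stayed past the threshold in alternatives that kept it. Within GC bins 1332 of the 1418 with a GC value did so, and 0 changed sign in any of these. Of the list medians, that of the cholesterol genes alone left the binomial interval of the main median over its members, at -0.26 under library totals, and it kept its sign. Depth limits genes near the floor of 3 counts, of which 12 were called. The spread between cultures is not known for any value.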
